A study of Mus musculus with 20 samples.

Results

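The Cxcl12 axis was described in bone marrow stromal cells of mice whose Ebf1 was floxed or wild type. It was defined by gene symbol as 4 of the 24347 genes in the expression tables: the chemokines Cxcl12 and Cxcl14 and the receptors Ackr3 and Cxcr4. All 4 were present in each of 12 RNA libraries, none was listed at 0 in any library, and all 4 passed the filter on low values. The groups were CAR ko, CAR wt, PaS ko and PaS wt, with 3 libraries each. CAR cells (CXCL12-abundant reticular cells) were the Sca1- cells of a CD45-CD31-Lin-PDGFRα+ gate, and PaS cells were its Sca1+ cells. The ko genotype was Ebf1fl/fl;Prx1+/cre and the wt genotype Ebf1+/+;Prx1+/cre, so every group carried the Prx1 Cre allele on the C57BL/6 strain. Prx1 Cre acts in limb mesenchyme, so the deletion is aimed at the stroma of the long bones and not at blood cells. The labels give no age and do not say whether animals were pooled or whether replicates came from separate animals, so p-values measure the spread between the libraries given. Genome accessibility libraries of the same populations are labelled too and were not analysed here.

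CXCL12 is the chemokine by which marrow stroma holds hematopoietic stem cells and B cell precursors in place, and CXCR4 is the receptor through which those cells sense it. ACKR3, earlier called CXCR7, binds CXCL12 without coupling to G proteins and takes it up for degradation, so it acts as a scavenger. CXCL14 is an older, highly conserved chemokine of epithelia and stroma whose receptor is debated.

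The genes lie at chr6:117168535-117181368 (Cxcl12), chr13:56288643-56296811 (Cxcl14), chr1:90203980-90215724 (Ackr3) and chr1:128588199-128592299 (Cxcr4) in RefSeq on GRCm38.p6. The 250 bases before the start of Ackr3 and of Cxcl12 are printed because the scavenger differed between genotypes while its ligand did not. Capitals mark matches to TATAAA, the sequence of the TATA box, on the strand of the gene. Whether the match in Ackr3 serves as a TATA box was not tested. Each promoter is given 5′ to 3′ on the plus strand, at chr1:90203730-90203979 for Ackr3 and chr6:117168285-117168534 for Cxcl12.
Ackr3: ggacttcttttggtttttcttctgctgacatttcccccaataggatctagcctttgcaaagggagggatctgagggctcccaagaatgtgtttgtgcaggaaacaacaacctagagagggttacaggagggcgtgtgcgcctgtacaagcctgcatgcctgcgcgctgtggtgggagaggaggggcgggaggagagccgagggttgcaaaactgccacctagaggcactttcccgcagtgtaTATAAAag
Cxcl12: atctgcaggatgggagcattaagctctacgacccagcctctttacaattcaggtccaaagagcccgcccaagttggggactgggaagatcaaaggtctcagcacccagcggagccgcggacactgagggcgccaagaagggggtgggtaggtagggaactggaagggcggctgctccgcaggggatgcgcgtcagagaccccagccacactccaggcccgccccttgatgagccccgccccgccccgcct
Promoters of 1 chromosome were not searched, and all promoters here means the 32851 RefSeq promoters that were. In windows from 250 bases before to 50 bases after the start, TATAAA was found on either strand in 13.6% of them. Among the members it occurred in Ackr3, beginning 8 bases before the annotated start, and in Cxcr4, where overlapping matches on both strands began 30 and 32 bases before it. The palindromic consensus for EBF proteins, which is T, then CCCNNGGG, then A, was found in 0 of the 4 windows and in 0.904% of all promoters. Its inner core CCCNNGGG was found in 0 of the 4 and in 13.7% of all promoters. The window of Ackr3 held 8 CpG dinucleotides, against 20 in Cxcl12, 20 in Cxcr4, 22 in Cxcl14 and a median of 7 over all promoters. The window of Cxcl14, chr13:56296502-56296801 on the minus strand, was set on a start inside the gene span given above. It lay wholly within that span, so no base upstream of the span was searched for Cxcl14.

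Values were FPKM (fragments scaled to the length of the gene and to the mapped fragments of the library), which allow levels to be compared between genes per length. Libraries summed to 491801 to 526074 FPKM, with 11863 to 12295 genes at 1 FPKM or more. The share of genes listed at 0 was 24.6% in PaS wt replicate 1 and 33.3% to 37.0% elsewhere. The targeted gene Ebf1 was not lower in ko libraries, with 57.5 ± 1.99 FPKM in CAR ko and 48.1 ± 1.10 FPKM in CAR wt (mean ± SD, n = 3). It had 62.5 ± 2.18 FPKM in PaS ko and 55.9 ± 5.89 FPKM in PaS wt. Whole-gene values can include exons outside a deleted part and do not check the genotype labels. The markers followed the sort. Ly6a, a PaS marker, encodes the Sca1 that split the gate, and the lists were chosen with earlier results of these data known. Of 10 CAR cell markers, 9 were higher in CAR wt than in PaS wt, as were 20.5% of all tested genes. All 10 PaS markers were lower, as were 22.7% of all tested genes. The exception among CAR markers was Pdgfra, the shared sort marker. Markers of cells that the gates should remove were present in every group, above all those of neutrophils, and most lists are given beside the results they touch. Erythroid genes summed to 2013 to 2425 FPKM in CAR ko and 3668 to 4221 FPKM in CAR wt, where 7 of 8 fell in ko, and to 3864 to 4218 FPKM in PaS ko and 3252 to 3961 FPKM in PaS wt, where 4 rose in ko. Pericyte and smooth muscle genes summed to 36.4 to 44.2 FPKM in CAR ko and 35.0 to 38.0 FPKM in CAR wt, where 1 of 7 rose in ko, and to 50.9 to 52.5 FPKM in PaS ko and 29.6 to 34.5 FPKM in PaS wt, where 3 rose in ko. The part of these cells in the members' values was not tested.

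Cxcl12 was the most abundant transcript of CAR wt cells and its level did not differ between genotypes in either population. It had 14684, 12486 and 12729 FPKM in CAR ko libraries and 12899, 13206 and 13649 FPKM in CAR wt libraries. It ranked as number 1 of all genes in each CAR wt library and as number 2 or 3 in the CAR ko libraries. It held 2.43% to 2.86% of all FPKM in CAR ko and 2.56% to 2.65% in CAR wt libraries. CAR ko libraries lay on both sides of the wt libraries, with replicate 1 the highest of all. The log2 fold change, here and throughout that of FPKM + 1, was 0.00 (SE 0.07, adjusted p = 0.993 by limma over all tested genes), with a 95% interval of -0.15 to 0.15. Bulk values cannot tell fewer cells of a type from less RNA per cell.

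PaS libraries held less Cxcl12 than CAR libraries, again with no difference between genotypes. The list of 10 CAR markers also summed lower, to 1299 to 1432 FPKM in PaS ko and 1268 to 1333 FPKM in PaS wt. It summed to 3066 to 3303 FPKM in CAR ko and 3667 to 3882 FPKM in CAR wt. The part of CAR cells in the Cxcl12 values of PaS libraries was not tested. Cxcl12 had 4835, 4203 and 4127 FPKM in PaS ko libraries and 4369, 4203 and 4259 FPKM in PaS wt libraries, ranking from number 5 to number 11 of all genes. The ko values spanned the wt values, and the log2 difference was 0.03 with a 95% interval of -0.12 to 0.18 (SE 0.07, adjusted p = 0.858). The genotype effects in CAR and PaS cells differed by -0.03 (adjusted p = 0.901). Quantile normalization, which forces the top-ranked genes of all libraries to shared values, gave Cxcl12 a log2 fold change of -0.49 in CAR cells (adjusted p = 0.009) and a difference of effects of -0.66 (adjusted p = 0.0204). Over all alternatives the adjusted p ran from 0.009 to 1 in CAR cells and from 0.0204 to 1 for the difference.

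**Figure D1:**
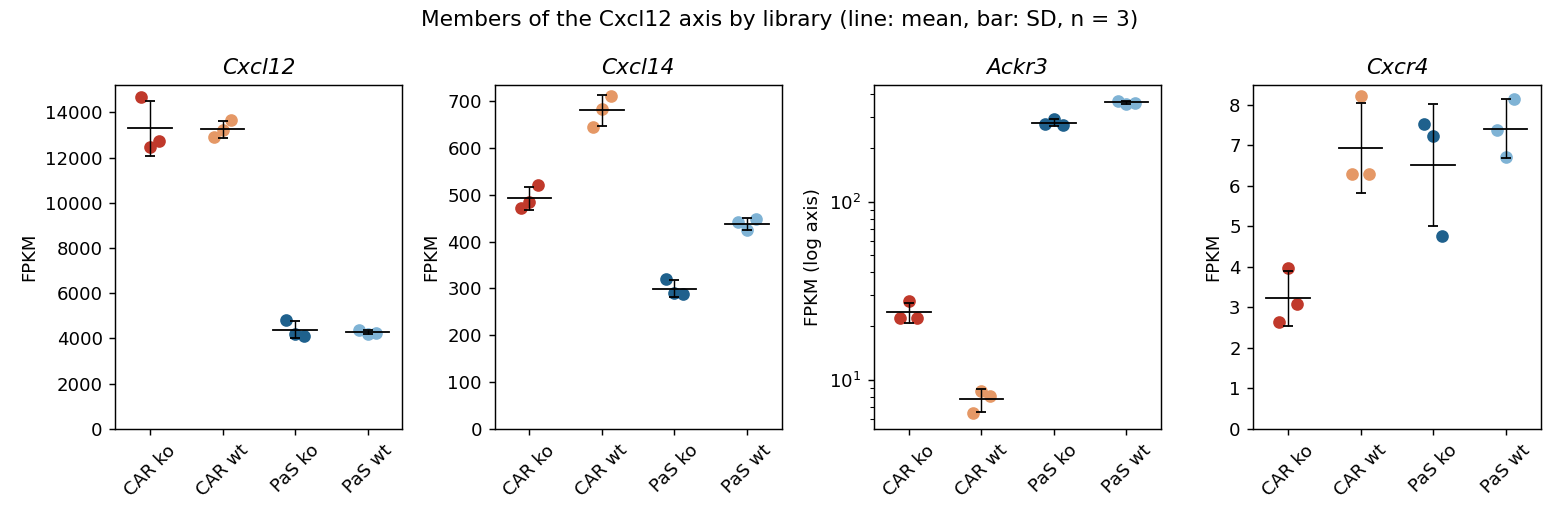
FPKM of Cxcl12, Cxcl14, Ackr3 and Cxcr4 in each of the 12 libraries, by group (points: libraries, line: mean, bar: SD, n = 3; log axis for Ackr3 only). Ackr3 sits between 22.1 and 27.6 FPKM in CAR ko and between 6.49 and 8.67 FPKM in CAR wt, but is lower in PaS ko than in PaS wt, while Cxcl14 is lower in ko libraries of both populations.

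Cxcl14 was lower in ko libraries of both populations, by a similar proportion. In CAR cells it had 472, 484 and 520 FPKM in ko libraries, against 645, 684 and 711 FPKM in wt libraries. The groups did not overlap, and the mean fell by 27.6% (log2 fold change -0.47, adjusted p = 0.000103, SE 0.06). Among PaS libraries it had 319.9, 290.0 and 288 FPKM in ko libraries, against 441, 424 and 449 FPKM in wt libraries. These groups did not overlap either, and the mean fell by 31.7% (log2 fold change -0.55, SE 0.06, adjusted p = 2.25e-05). The effects in the populations differed by 0.08 (95% interval -0.10 to 0.27, adjusted p = 0.65). Both calls held under every alternative run, with an adjusted p of at most 0.00254 in CAR and 0.00123 in PaS cells. Beside it, 0 of the 10 CAR markers rose and 4 fell in CAR ko, namely Kitl, Adipoq, Foxc1 and Cbln1. In PaS ko, Vcam1 rose and Pdgfra and Cbln1 fell. Of all tested genes, 6.51% rose and 5.74% fell in CAR ko, and 3.41% rose and 4.03% fell in PaS ko. These shares are also the background for the other marker lists. The sums of the CAR list are given above beside Cxcl12, and the part of CAR cells in the Cxcl14 values was not tested.

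Ackr3 moved in opposite directions in the populations. It had 22.1, 27.6 and 22.1 FPKM in CAR ko libraries, against 6.49, 8.67 and 8.14 FPKM in CAR wt libraries. Every CAR ko library lay above every CAR wt library, and the ratio of the mean FPKM was 3.08. The log2 fold change was 1.51 (SE 0.10, adjusted p = 1.07e-07), and it held under every alternative, from 1.18 to 1.62. Its rank among all genes was 2819 to 3414 in CAR ko and 6498 to 7505 in CAR wt libraries.

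In PaS cells, where Ackr3 is an abundant transcript, it was lower in ko libraries. It had 272, 291 and 268 FPKM in PaS ko libraries, against 369, 354 and 359 FPKM in PaS wt libraries. The groups did not overlap and the mean fell by 23.3% (log2 fold change -0.38, SE 0.10, adjusted p = 0.0246). This call was lost without a filter (adjusted p = 0.128) and without any single PaS library other than ko replicate 2 (0.056 to 0.0918), at fold changes of -0.40 to -0.36; its adjusted p ran from 0.00172 to 0.128 over all alternatives. The effect in CAR minus the effect in PaS was 1.89 (SE 0.14, adjusted p = 5.83e-07). It stayed called under every alternative, from 1.56 to 2.00.

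Markers of PaS cells also moved. In CAR ko, Ly6a (which encodes Sca1), Ly6c1, Efemp1 and Has1 rose, and Cd34 and Pi16 fell, of 10 markers. Without Pdgfra, the other 9 summed to 140 to 158 FPKM in CAR ko and 109 to 110 FPKM in CAR wt libraries. None of the 10 was listed at 0. In PaS ko, 0 of the 10 rose and 6 fell, and the same 9 summed to 3555 to 3814 FPKM, against 4504 to 5178 FPKM in PaS wt. Set against its mean in PaS wt, Ackr3 stood at 6.64% in CAR ko and 2.15% in CAR wt, whereas Ly6a stood at 0.449% in CAR ko and 0.238% in CAR wt. The hyaluronan synthase Has1 stood at 9.52% in CAR ko and 4.45% in CAR wt, and Cd34 at 1.32% in CAR ko and 2.13% in CAR wt. Of 9 endothelial markers, Plvap and Cldn5 rose in CAR ko and none fell, with sums of 16.1 to 19.7 FPKM in CAR ko and 11.1 to 12.4 FPKM in CAR wt. These are low values, and 2 of the 9 were listed at 0 in CAR wt replicate 3. Cldn5 averaged 2.87 FPKM in CAR ko and 0.144 FPKM in CAR wt, and Plvap 5.55 FPKM in CAR ko and 2.79 FPKM in CAR wt. In PaS ko, the endothelial receptor Tek fell and the list summed to 65.3 to 68.9 FPKM, against 69.8 to 81.5 FPKM in PaS wt. The part of PaS or endothelial cells in the Ackr3 values was not tested.

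**Figure D2:**
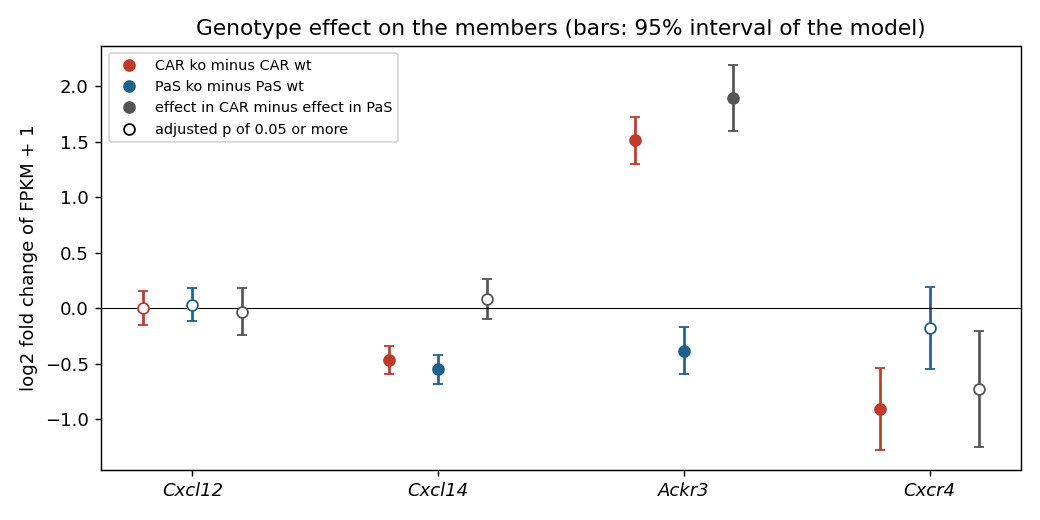
Log2 fold change of FPKM + 1 for each member, with the 95% interval of the limma model, for CAR ko minus CAR wt, PaS ko minus PaS wt and the difference of these effects; open points had an adjusted p of 0.05 or more. The Ackr3 points lie at 1.51, -0.38 and 1.89, while all 3 intervals of Cxcl12 include 0.

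The number of Cxcl12 fragments per Ackr3 fragment, each per kilobase, separated the groups. It was 664, 452 and 575 in CAR ko libraries, against 1989, 1522 and 1678 in CAR wt libraries. It was 17.8, 14.5 and 15.4 in PaS ko libraries, against 11.84, 11.86 and 11.86 in PaS wt libraries. The ratio was thus lower in every CAR ko library than in any CAR wt library, and higher in every PaS ko library than in any PaS wt library. On the log2 scale the ratio differed by -1.63 in CAR and by 0.42 in PaS cells. The exact two-sided permutation test gave p = 0.1 for each, the smallest that 3 against 3 libraries allow. As Cxcl12 did not differ between genotypes, the ratio restates the Ackr3 values above and is no separate support for them. The order of the groups, from the highest ratio, was CAR wt, CAR ko, PaS ko and PaS wt.

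**Figure D3:**
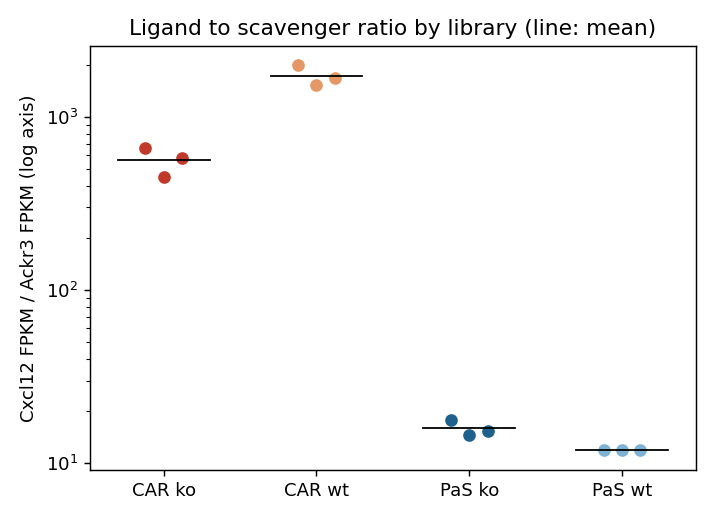
FPKM of Cxcl12 divided by FPKM of Ackr3 in each library, on a log axis (points: libraries, line: mean). CAR ko libraries lie between 452 and 664, below the CAR wt libraries, and PaS ko libraries lie between 14.5 and 17.8, above the PaS wt libraries.

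Cxcr4 was a low transcript in all groups and was lower in CAR ko. It had 2.63, 3.97 and 3.07 FPKM in CAR ko libraries, against 6.28, 8.20 and 6.28 FPKM in CAR wt libraries. The groups did not overlap, and the mean fell by 53.5% (log2 fold change -0.91, adjusted p = 0.00246, SE 0.17). Among PaS libraries it had 7.52, 7.22 and 4.77 FPKM in ko libraries, against 7.37, 6.71 and 8.15 FPKM in wt libraries. These groups overlapped, replicate 3 being the low ko library (log2 fold change -0.18, SE 0.17, adjusted p = 0.633, 95% interval -0.55 to 0.19). The effects in CAR and PaS cells differed by -0.73 (SE 0.24, adjusted p = 0.0977), or by -0.91 without PaS ko replicate 3 (adjusted p = 0.033). Over all alternatives the adjusted p of this difference ran from 0.033 to 0.252.

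Leukocytes carry Cxcr4, and their markers fell with it in CAR ko. All 8 pan-leukocyte genes fell, including Ptprc, which encodes CD45, and the list summed to 157 to 159 FPKM in CAR ko and 427 to 467 FPKM in CAR wt libraries. Of 10 neutrophil genes 9 fell, with sums of 4616 to 5241 FPKM in CAR ko and 10220 to 11746 FPKM in CAR wt. All 7 tested B lineage genes fell, and the 9 in the tables summed to 35.7 to 43.2 FPKM in CAR ko and 97.3 to 102 FPKM in CAR wt. None of the 10 monocyte and macrophage genes was listed at 0 in any library; 5 of the 9 tested fell in CAR ko, with sums of 16.7 to 21.1 FPKM in CAR ko and 40.2 to 48.9 FPKM in CAR wt.

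In PaS ko these lists did not move as one. All 10 neutrophil genes fell, with sums of 6944 to 7122 FPKM in PaS ko and 22447 to 25149 FPKM in PaS wt, and 5 of 8 pan-leukocyte genes fell, with sums of 385 to 439 FPKM in PaS ko and 600.2 to 702 FPKM in PaS wt. The B lineage list summed to 108 to 135 FPKM in PaS ko and 89.5 to 93.1 FPKM in PaS wt, and Cd79b rose. Of the 9 tested monocyte and macrophage genes, 5 rose and 1 fell, and the list summed to 316 to 408 FPKM in PaS ko and 162 to 187 FPKM in PaS wt. The part of these cells in the Cxcr4 values was not tested.

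**Figure D4:**
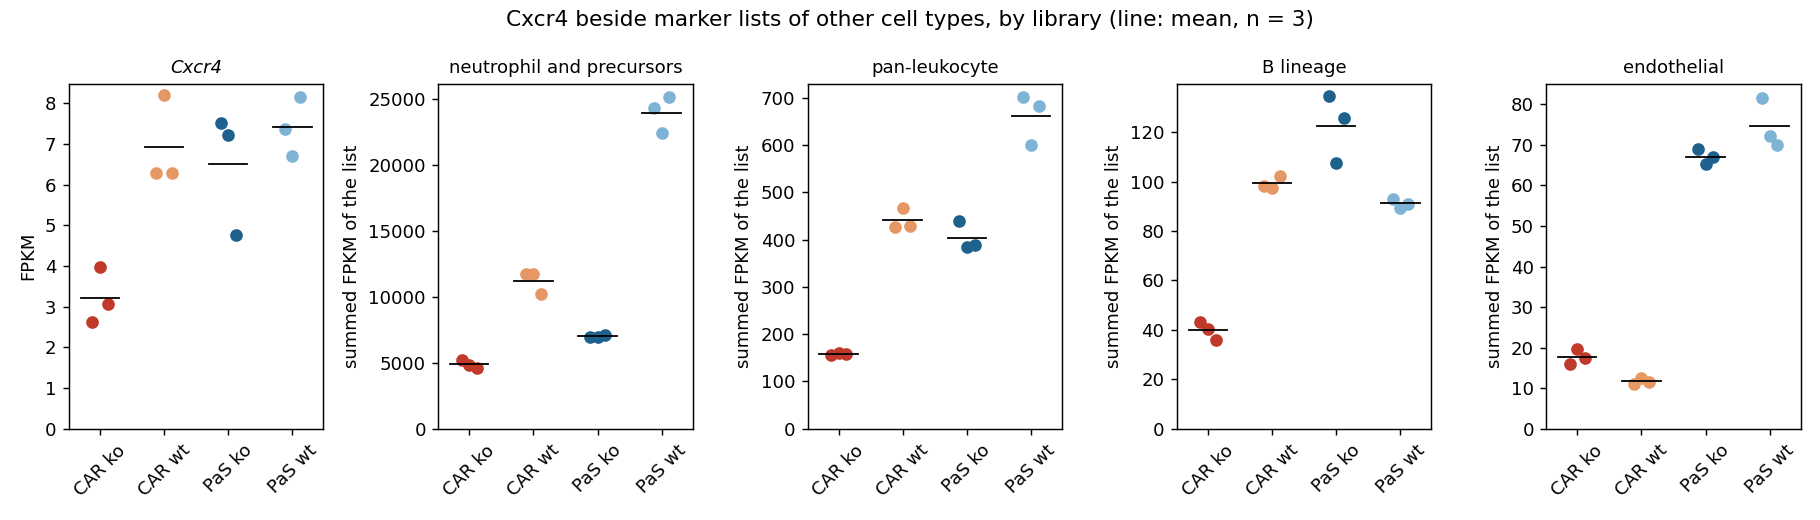
FPKM of Cxcr4, and summed FPKM of the neutrophil, pan-leukocyte, B lineage and endothelial marker lists, in each library (points: libraries, line: mean, n = 3). Cxcr4 and the 3 leukocyte lists are lower in all CAR ko libraries than in CAR wt libraries, while in PaS cells the neutrophil sum is lower in ko and the B lineage sum is higher.

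Counted over the members, 3 of 4 were called (adjusted p under 0.05) in CAR cells, where 12.3% of the 12938 tested genes were called, and 2 of 4 in PaS cells, where 7.44% were. The difference of effects was called for 1 of 4, against 6.58% of all genes (3.32% positive and 3.26% negative). The groups did not overlap for the same 3 members in CAR cells, against 29.9% of all tested genes, and for the same 2 in PaS cells, against 23.4%.

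Between the sorted populations, the ligands were higher in CAR cells and the scavenger was far higher in PaS cells, in either genotype. In wt cells Cxcl12 averaged 13251 ± 377 FPKM in CAR and 4277 ± 84.8 FPKM in PaS (log2 fold change 1.63, adjusted p = 2.66e-11), and Cxcl14 averaged 679.9 ± 32.9 FPKM in CAR and 438 ± 12.9 FPKM in PaS (0.63, adjusted p = 3.95e-07). Ackr3 averaged 7.77 ± 1.14 FPKM in CAR wt and 361 ± 7.56 FPKM in PaS wt (log2 fold change -5.38, adjusted p = 1.28e-15), a level 46.5 times higher in PaS. Cxcr4 averaged 6.92 ± 1.11 FPKM in CAR wt and 7.41 ± 0.72 FPKM in PaS wt, which was not called (-0.09, adjusted p = 0.707). So 3 of 4 members were called, in a contrast where 43.2% of all tested genes were (20.5% higher and 22.7% lower in CAR wt). The same 3 had groups that did not overlap, as did 51.2% of tested genes.

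In ko cells all 4 members were called, against 36.9% of tested genes (17% higher and 19.8% lower in CAR ko), and all 4 had groups that did not overlap, as did 47.9% of tested genes. Cxcl12 averaged 13299 ± 1205 FPKM in CAR ko and 4388 ± 389 FPKM in PaS ko (log2 fold change 1.60, adjusted p = 4.21e-11), and Cxcl14 averaged 492 ± 25.2 FPKM in CAR ko and 299 ± 17.98 FPKM in PaS ko (0.72, adjusted p = 1.02e-07). Ackr3 averaged 23.9 ± 3.17 FPKM in CAR ko and 277 ± 12.3 FPKM in PaS ko (-3.48, adjusted p = 1.97e-13), so the level in PaS was 11.6 times higher. Cxcr4 averaged 3.22 ± 0.682 FPKM in CAR ko and 6.50 ± 1.51 FPKM in PaS ko (-0.82, adjusted p = 0.00133). The wt and ko contrasts share no library, but each shares its libraries with the genotype contrasts above.

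Ordered by level, Ackr3 ran PaS wt, PaS ko, CAR ko, CAR wt, with no overlap between neighbours. Cxcl14 ran CAR wt, CAR ko, PaS wt, PaS ko, also with no overlap. Cxcl12 formed an upper pair of CAR groups and a lower pair of PaS groups, and within each pair the groups overlapped. For Cxcr4 CAR ko was the lowest group, and the other 3 overlapped.

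The genes most like each member were named by Pearson's r of log2(FPKM + 1) over the 12 libraries, among tested genes of at least 10 FPKM on average. The libraries fall into 4 groups, so r mainly describes group levels, and it is given with no test. Most like Cxcl12 were the sphingosine phosphate receptor S1pr3, Arrdc4, the lipoprotein lipase Lpl, the protease inhibitor Serpine2 and the haptoglobin gene Hp, at r of 0.9958 to 0.9968. Serpine2 had 4429 FPKM in CAR ko and 4450 FPKM in CAR wt on average, and 1395 FPKM in PaS ko and 1479 FPKM in PaS wt.

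Most like Ackr3 were Medag, the gelatinase gene Mmp2, the caveolin gene Cav1, the growth factor Fgf18 and Cd109, at r of 0.9953 to 0.997. Like Ackr3, Cav1 averaged more in CAR ko than in CAR wt (22.7 and 10.9 FPKM) and less in PaS ko than in PaS wt (192 and 239 FPKM). Mmp2 averaged 302 FPKM in CAR ko and 183 FPKM in CAR wt, but 905 FPKM in PaS ko and 885 FPKM in PaS wt. Most like Cxcl14 were Limd2, Cbln1, the chemokine Ccl9, the NF-kB inhibitor Nfkbia and Ifitm1, at r of 0.9626 to 0.9853. Cxcr4 had a looser set, with Gnb4, Frmd8, Tyrobp, Fcgr3 and Lcp1 at r of 0.8988 to 0.9096, of which Tyrobp and Lcp1 are in the pan-leukocyte list.

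The other genes of the network were taken from fixed lists and are read against the background of each contrast. Of all tested genes, 6.51% were called higher and 5.74% lower in CAR ko, and 3.41% higher and 4.03% lower in PaS ko, with medians of 0.01 and 0.00 on the log2 scale. Among 6 other ligands of Cxcr4 or Ackr3, 4 were tested. In CAR ko the enkephalin precursor Penk, whose peptides ACKR3 also takes up, fell, and the list median was -0.17. It averaged 9.78 ± 1.52 FPKM in CAR ko and 13.2 ± 1.76 FPKM in CAR wt (log2 fold change -0.40, adjusted p = 0.0235), and the call was lost without a filter (0.114), with only the CAR groups fitted (0.117) or without CAR wt replicate 2 or 3 or CAR ko replicate 2 or 3 (0.0543 to 0.112). In PaS ko none of the 4 was called, and the list median was 0.20. The cytokine Mif, a ligand of both receptors, had log2 fold changes of -0.28 in CAR and 0.40 in PaS cells, neither called, and adrenomedullin (Adm) and Hmgb1 were not called either.

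Of 5 other atypical chemokine receptors, Ackr2 rose and Ccrl2 fell in CAR ko, and none was called in PaS ko. Ackr2, a scavenger of inflammatory CC chemokines, had 2.45, 2.72 and 2.78 FPKM in CAR ko libraries and 1.04, 0.914 and 0.551 FPKM in CAR wt libraries (log2 fold change 1.00, SE 0.14, adjusted p = 0.000191). Its PaS levels were higher, 14.4 ± 1.95 FPKM in PaS ko and 16.0 ± 0.505 FPKM in PaS wt (-0.15, adjusted p = 0.629). Ackr4, which removes CCL19, CCL21 and CCL25, had the opposite preference, with 165 ± 16.8 FPKM in CAR ko, 181 ± 6.91 FPKM in CAR wt, 42.2 ± 4.45 FPKM in PaS ko and 42.4 ± 6.86 FPKM in PaS wt. Ackr1 and C5ar2 were not called in either population. The call of Ccrl2 was lost without a filter (adjusted p = 0.0707) and without CAR wt replicate 3 (0.0594).

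Of 12 other CXC chemokines, 9 were tested. In CAR ko 0 rose and 2 fell, Pf4 and Cxcl2, and both calls were lost without a filter and without single libraries. In PaS ko Cxcl10 rose and Cxcl1, Cxcl2 and Pf4 fell, the call of Pf4 being lost without a filter (adjusted p = 0.071). Pf4 is made by megakaryocytes, and of 7 markers of that lineage, Pf4 and Ppbp among them, 3 fell in CAR ko and 5 in PaS ko. The list summed to 19.7 to 281 FPKM in CAR ko and 192 to 485 FPKM in CAR wt, and to 41.3 to 54.0 FPKM in PaS ko and 363 to 432 FPKM in PaS wt, and its part in the Pf4 values was not tested. The neutrophil attractant Cxcl1 had 505, 453 and 508 FPKM in PaS ko libraries, against 698, 776 and 726 FPKM in PaS wt libraries (log2 fold change -0.58, SE 0.06, adjusted p = 1.35e-05). Cxcl10, a chemokine induced by interferon, averaged 88.1 ± 16.0 FPKM in PaS ko and 58.2 ± 2.12 FPKM in PaS wt (0.58, adjusted p = 0.00101). Among the other CXC receptors only Cxcr2 was tested. This neutrophil receptor, itself in the neutrophil list, fell in PaS ko (-1.94, adjusted p = 8.25e-05), and had -0.64 in CAR ko (adjusted p = 0.107). Cd74, the receptor of MIF and a chaperone of class II molecules, averaged 29.8 ± 4.20 FPKM in CAR ko and 49.1 ± 1.83 FPKM in CAR wt (-0.71, adjusted p = 7.4e-05), and 128 ± 10.5 FPKM in PaS ko and 117 ± 4.24 FPKM in PaS wt (0.13, adjusted p = 0.465). The B lineage list and the monocyte and macrophage list, given above beside Cxcr4, also summed lower in CAR ko and summed higher in PaS ko. The part of these cells in the Cd74 values was not tested.

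The fixed list of proteases that cut CXCL12 held 7 genes, and all 7 were tested. In CAR ko, the matrix enzymes Mmp2 and Ctsk rose and Mmp9, Elane and Ctsg fell. The call of Ctsk in CAR ko was lost without a filter (adjusted p = 0.0647) and on leaving out any 1 CAR library except wt replicate 3 (0.0672 to 0.127). In PaS ko, Ctsk rose and Dpp4, Mmp9 and Elane fell. Dpp4, a surface peptidase that inactivates CXCL12, averaged 18.6 ± 1.16 FPKM in PaS ko and 40.4 ± 0.572 FPKM in PaS wt (log2 fold change -1.08, adjusted p = 0.00228). Mmp2 had 284, 313 and 308 FPKM in CAR ko libraries, against 175, 186 and 187 FPKM in CAR wt libraries (0.72, adjusted p = 3.12e-07). Ctsg was not called in PaS ko (log2 fold change -0.21, adjusted p = 0.427). Elane, Ctsg and Mmp9 are made by neutrophils and their precursors, whose markers, Elane among them, are given above beside Cxcr4. The part of these cells in the values of Elane, Ctsg and Mmp9 was not tested.

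Of 11 genes of receptor transduction, Gnai3 rose and Adrbk1, a kinase that desensitises receptors, fell in CAR ko, and none was called in PaS ko. Adrbk1 averaged 9.58 ± 0.938 FPKM in CAR ko and 14.8 ± 0.943 FPKM in CAR wt (log2 fold change -0.58, adjusted p = 0.00524). The beta-arrestin gene Arrb2, through which ACKR3 signals, had -0.43 in CAR cells (adjusted p = 0.0591) and -0.41 in PaS cells (adjusted p = 0.104). The call of Gnai3 was lost in most alternatives, with the replicate number as a block (adjusted p = 0.0608) among them.

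Heparan sulfate holds CXCL12 on cells and matrix, and 19 of 21 genes of its synthesis and carriers were tested. In CAR ko 8 rose and 2 fell, with a median of 0.20, and in PaS ko 3 rose and 1 fell, with a median of -0.01. The syndecan Sdc3 rose in both, with 62.3 ± 4.65 FPKM in CAR ko and 38.6 ± 2.93 FPKM in CAR wt (log2 fold change 0.67, adjusted p = 0.000336), and 29.5 ± 2.26 FPKM in PaS ko and 18.7 ± 2.56 FPKM in PaS wt (0.64, adjusted p = 0.000689). Sdc2 rose in CAR ko (0.37, adjusted p = 0.000344), as did Sdc4 (0.45, adjusted p = 0.00333). Sulf2, which trims sulfate groups from heparan sulfate outside the cell, moved as Ackr3 did. It had 5.60, 5.55 and 4.95 FPKM in CAR ko libraries, against 3.02, 2.58 and 4.06 FPKM in CAR wt libraries (0.61, adjusted p = 0.00222). It had 41.1, 40.1 and 42.8 FPKM in PaS ko libraries, against 64.8, 63.7 and 63.6 FPKM in PaS wt libraries (-0.62, adjusted p = 0.00246), and its effects differed by 1.23 (adjusted p = 0.00024). The calls of Gpc1, Gpc3, Gpc6, Ext2, Hs3st1 and Sulf1 in CAR ko were lost without a filter, and that of Sdc1, which rose in PaS ko, without single libraries.

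Among 11 genes reported to regulate Cxcl12 in marrow, Gja1, Pth1r and Ebf1 rose and Foxc1 fell in CAR ko, and Gja1 and Pth1r rose in PaS ko. Foxc1, a transcription factor that maintains CAR cells, had 103, 102 and 98.8 FPKM in CAR ko libraries, against 125, 129 and 132 FPKM in CAR wt libraries (log2 fold change -0.35, SE 0.07, adjusted p = 0.00332). Gja1 encodes connexin 43, on which the release of CXCL12 depends, and averaged 945 ± 22.7 FPKM in CAR ko and 697 ± 6.35 FPKM in CAR wt (0.44, adjusted p = 3.13e-05), and 332 ± 14.7 FPKM in PaS ko and 274 ± 7.18 FPKM in PaS wt (0.28, adjusted p = 0.00228). The parathyroid hormone receptor Pth1r had log2 fold changes of 0.40 in CAR and 0.49 in PaS cells (adjusted p = 0.000685 and 0.000127). Ebf3 had -0.41 in CAR cells (adjusted p = 0.115) and 0.19 in PaS cells (adjusted p = 0.565). Adrb3, the hypoxia factor Hif1a, the connexin gene Gjc1, Tgfb1 and Lepr were not called in either. The call of Ebf1 was lost without a filter (adjusted p = 0.0752), under quantile normalization (0.065) and without any single CAR library.

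**Figure D5:**
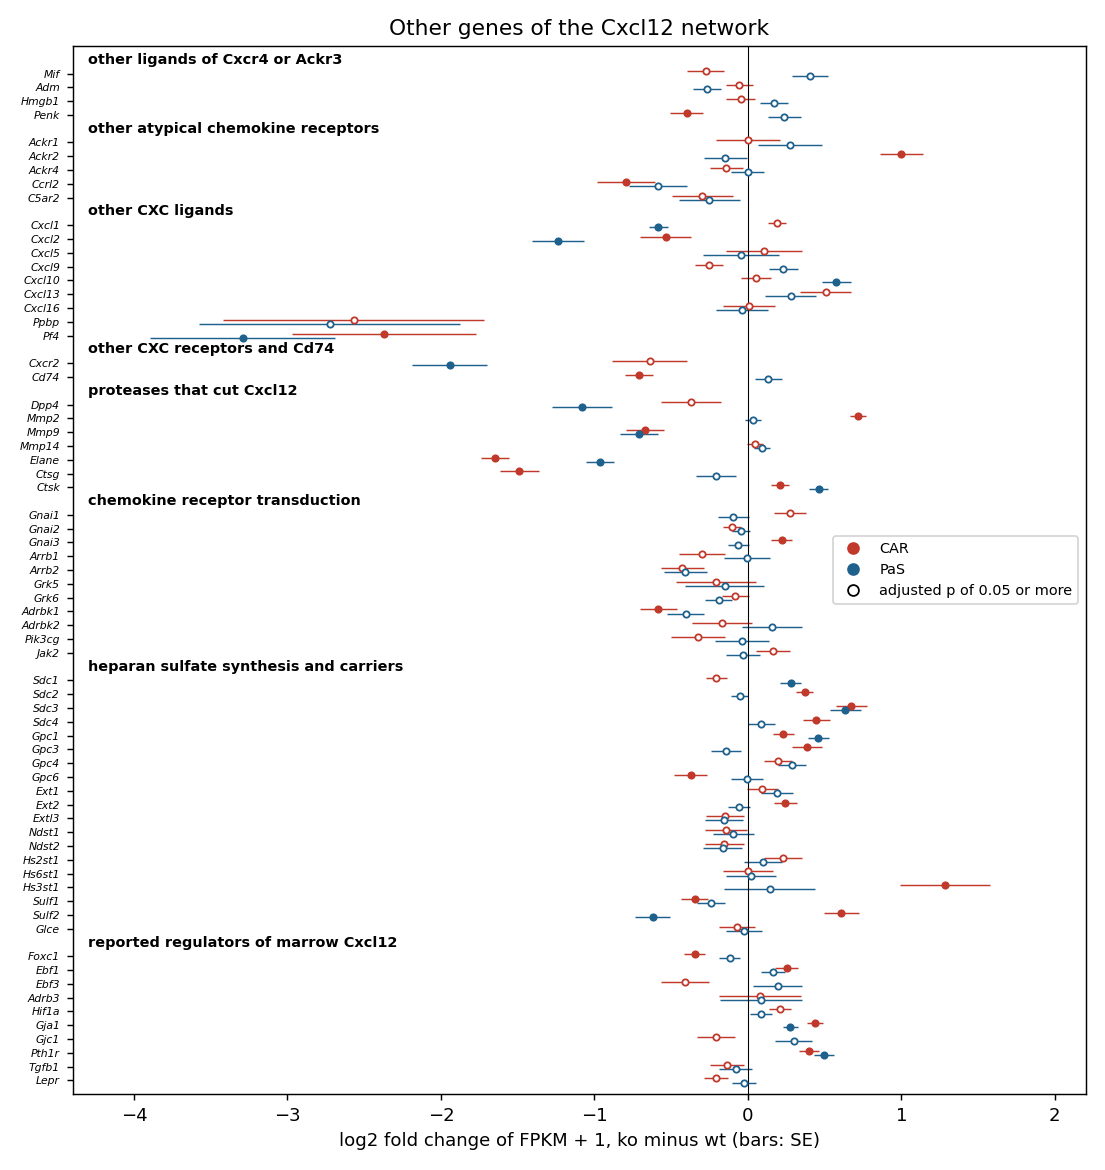
Log2 fold change of FPKM + 1, ko minus wt, with its SE, for tested genes of the fixed lists around Cxcl12 (1 gene is not shown), in CAR and PaS cells; open points had an adjusted p of 0.05 or more. Sulf2 lies at 0.61 in CAR and -0.62 in PaS cells, and Ackr2 at 1.00 in CAR cells.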

How the data were processed

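The submitters' processing notes name mm10, Cuffnorm 2.2.1, Cuffdiff, Cufflinks 2.2.1, TopHat2 2.0.14 and bcl2fastq 2.17.1.14, with no role or order. Libraries were made with SMART-Seq v4 from oligo dT-enriched RNA, per the labels. The authors deposited 1 table of FPKM per library. Depth is unknown, so no counting interval was computed, and strand is not stated, so overlapping genes cannot be told apart.

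Tests used log2(FPKM + 1), which understates the change of low genes, for the 12938 genes that reached 1 FPKM in 3 or more libraries. The tests came from limma 3.58.1 (R 4.3.3; 1 model of the 4 groups, eBayes with a trend), two-sided, with Benjamini-Hochberg adjustment over all tested genes, and genes were called at an adjusted p under 0.05. The fit was tested on simulated data. Errors are SD beside FPKM (n = 3) and SE beside log2 fold changes. Same-numbered libraries were not paired by the labels, so the main fit has no block. Named genes were the members, genes of the lists (any could be named, by preference the 4 smallest p of a long list) and the 5 most like each member. The values of 1 listed gene are not reported here. Members and lists were chosen with earlier results of these data known. Alternatives were other pseudocounts, filters and scalings, a replicate block, fits of the compared groups, zeros as missing and leaving out each library. Figures used matplotlib 3.10.9.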

Additional observations from a re-analysis of the deposited data

Results flagged for a closer look

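The difference between the genotype effects in CAR and PaS cells, tested as an interaction term in limma, passed the threshold for 1 member, Ackr3, at 1.89 on the log2 scale (effect in CAR minus effect in PaS).

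Over all tested genes the difference of effects passed for 6.58%. Among the other network genes it passed for Sulf2 at 1.23, Ackr2 at 1.15, Cxcl1 at 0.78, Mmp2 at 0.69 and Sdc2 at 0.43, and for Ctsg at -1.28, Cd74 at -0.84, Elane at -0.68 and Sdc1 at -0.49. It also passed for Cxcr2 at 1.30, Gpc3 at 0.52, Mif at -0.68, Penk at -0.64, Cxcl10 at -0.52 and Cxcl9 at -0.49, and these 6 calls were lost without a filter and without at least 1 single library. None of the 11 genes of receptor transduction or the 11 reported regulators of Cxcl12 passed. Ctsg, Elane and Cxcr2 are neutrophil genes, and the part of neutrophils in their values was not tested. Groups of 3 libraries are too small for a test of single outlying libraries.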

How the results depend on the processing

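Of the results on the 4 members, most kept their direction and their side of the threshold. Under quantile normalization Cxcl12 had -0.49 in CAR ko against CAR wt and a difference of effects of -0.66, and the uncalled difference for Cxcl14 was -0.0825. Leaving out libraries in turn moved Cxcl12 from -0.0715 to 0.0454 in CAR, from -0.0382 to 0.076 in PaS and from -0.11 to 0.04 for the difference, none called. Ackr3 in PaS cells had -0.38 without a filter, no longer called, and -0.42 to -0.36 without single libraries; the difference for Cxcr4 ran from -0.91 to -0.62. The log2 change of the Cxcl12 to Ackr3 ratio in PaS cells was 0.33 to 0.48 without single libraries. Without a filter, 503 genes were called for the difference of effects, against 851; the other counts stayed within 1.5 times. Quantile normalization called 3128 genes higher and 2630 lower in CAR wt than in PaS wt, against 2647 and 2943, and 2611 higher and 2283 lower in CAR ko than in PaS ko, against 2203 and 2566. The cause of these changes was not tested. A replicate block changed no member's call, with 1585 genes called in CAR and 961 in PaS cells, against 1585 and 962. Same-numbered libraries correlated over 0.1 in 3 of 18 pairs (-0.04 to 0.18), and 5 of 12 libraries correlated best with their own number. Low values limit Cxcr4 most, and depth is unknown.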
